A study of Mus musculus with 15 samples.

Results

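Lgi2 and Lgi3 encode secreted proteins of the LGI (leucine-rich glioma inactivated) family and were followed through RNA sequencing libraries of mouse uterine epithelium with and without overexpression of the receptor gene Notch1. They are 2 of the 28269 genes listed in any deposited table, were found by their gene symbols, and both belong to the 2819 genes listed in all 15 tables. Both were chosen by their measured levels across these groups, Lgi2 for its difference between E-OEX LE and wild-type LE and Lgi3 for its difference between U-OEx LE and E-OEX LE. Their levels and the differences between genotypes are therefore given as descriptions, without tests.

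Total RNA had been taken on day 4 from the luminal epithelium (LE) that faces the cavity of the uterus and from the glandular epithelium (GE). There were 3 libraries in each of 5 groups, namely wild-type LE, wild-type GE, E-OEX LE, E-OEX GE and U-OEx LE. The E-OEX and U-OEx groups both carry the genotype label of Notch1 overexpression. E-OEX and U-OEx are names from the sample titles, and the labels give neither their meaning nor the allele, its driver, the age of the mice or any pooling. No label says that the libraries of a group came from separate animals, so SDs and p-values measure the spread between these libraries, which may be technical.

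LGI proteins consist of leucine-rich repeats followed by EPTP repeats that fold into a propeller. Once secreted, they bind ADAM11, ADAM22 and ADAM23, membrane proteins of the ADAM family that have lost protease activity, and the best studied of these complexes organise synapses and potassium channels in the nervous system. LGI2 is known as a gene mutated in an inherited epilepsy of dogs, and LGI3 as a secreted factor of brain, fat and skin.

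Lgi2 (ENSMUSG00000039252) lies at chr5:52533517-52566462 on the minus strand and Lgi3 (ENSMUSG00000033595) at chr14:70530685-70538324 on the plus strand of GRCm38, the build named in the submitters' processing notes. The GENCODE M21 exons cover 6528 bases of Lgi2 and 3899 bases of Lgi3. Their coding sequences, of 1650 and 1644 bases, are identical at 60.7% of 1608 aligned bases. The longest run of bases found in both is 18 bases long. Of the 6572 different 50-base words in Lgi2 transcripts and the 3994 in Lgi3 transcripts, 0 occur in the GENCODE transcripts of another gene.

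The sequence just before the annotated start of Lgi2 is shown because Notch acts on transcription through the DNA-binding protein RBPJ. It covers chr5:52566463-52566556 of GRCm38.p6 (RefSeq promoter table, minus strand).
Lgi2 upstream: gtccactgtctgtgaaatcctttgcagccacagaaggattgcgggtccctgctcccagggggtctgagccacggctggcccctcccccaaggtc
Both strands of the RefSeq window of each gene, 250 bases before to 50 after the RefSeq start, were searched. The letters were TGGGAA, the core of the RBPJ motif, and CACGTG and CACNAG, motifs of basic helix-loop-helix repressors such as the HES and HEY proteins. TGGGAA occurs in 25.56% of the 32851 windows, CACGTG in 7.15% and CACNAG in 42.48%. None of the letters searched for occur in the Lgi2 window, which is a statement on these letters in this window only. Of that window, only the 94 bases shown lie before the GENCODE start, and the rest lies within the gene.

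The deposited value of a gene is its read count divided by 1 factor per library, called the scaled read count here. Lgi2 was near the detection limit in wild-type LE, with scaled read counts of 7.25, 9.22 and 1.12 in replicates 1 to 3 (5.86 ± 4.22, SD, n = 3), which rest on 7, 9 and 1 reads. In wild-type GE it measured 35.0, 78.7 and 32.0 (48.6 ± 26.1, SD, n = 3). All 3 glandular libraries lay above all 3 luminal ones in the wild type, as in 55.9% of the genes in these tables.

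In E-OEX LE the order was turned around, with Lgi2 at 4580, 3522 and 831 scaled read counts (2978 ± 1933, SD, n = 3) from 5017, 3878 and 770 reads. Replicate 3 stood apart from the others, and the highest and lowest libraries of this group differed by 5.51-fold. E-OEX GE measured 176, 70.1 and 95.6 (114 ± 55.4, SD, n = 3), below every E-OEX LE library, as in 29.4% of the genes. The highest values were those of U-OEx LE, with 7261, 8571 and 4783 (6872 ± 1924, SD, n = 3).

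Lgi3 followed another course. Wild-type LE held 73.5, 14.3 and 11.2 scaled read counts (33.0 ± 35.1, SD, n = 3), with replicate 1 far above the other libraries, and wild-type GE held 7.79, 0 and 6.92 (4.90 ± 4.27, SD, n = 3) from 8, 0 and 8 reads. The 3 luminal libraries all lay above the glandular ones, the reverse of Lgi2 and the case for 40% of the genes. E-OEX LE measured 279, 144 and 1369 (597 ± 671, SD, n = 3), a 9.48-fold range in which replicate 3 was the highest, whereas it was the lowest for Lgi2. E-OEX GE measured 62.1, 81.6 and 81.5 (75.1 ± 11.2, SD, n = 3).

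In U-OEx LE, where Lgi2 was highest, Lgi3 had almost no reads, with 0.919, 0.889 and 0 scaled read counts from 1, 1 and 0 reads. All 3 libraries were at or under 3 reads, the number treated here as the detection floor. Folds against this group are therefore lower bounds computed with 3 reads in each of its libraries.

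**Figure D1:**
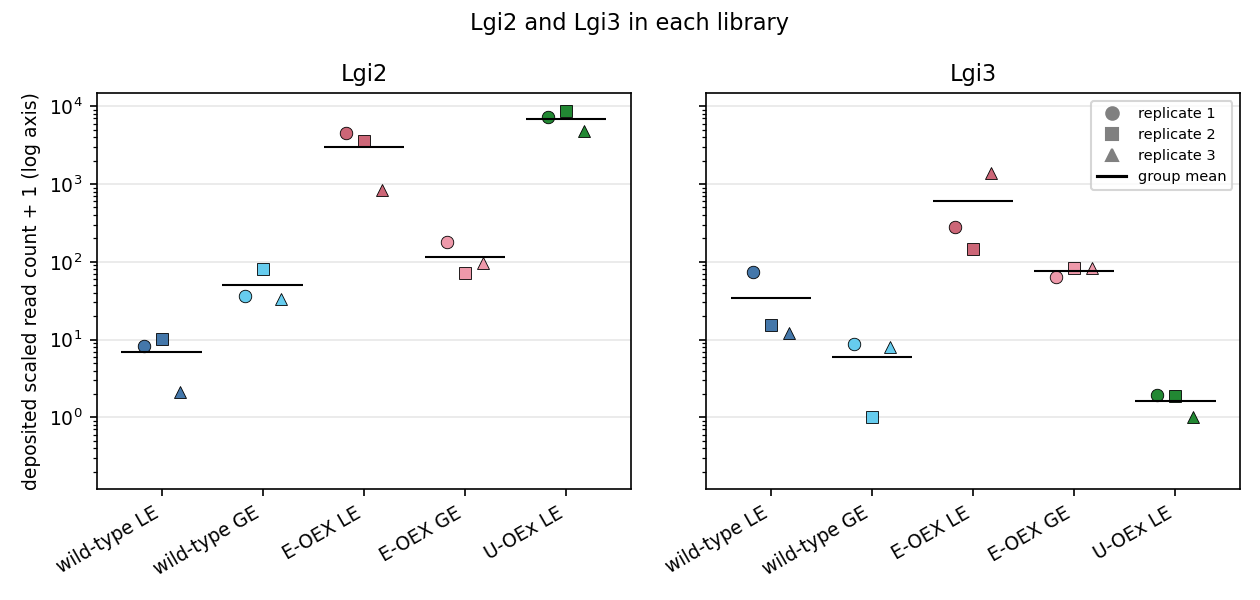
Scaled read counts of Lgi2 (left) and Lgi3 (right) in each of the 15 libraries, plotted as value + 1 on a log axis, with the group mean as a line. The tables of the genotypes may have been scaled separately. Lgi2 is highest in U-OEx LE (4783 to 8571) and Lgi3 in E-OEX LE (144 to 1369), and Lgi3 is at most 0.919 in U-OEx LE.

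Because the tables of the genotypes may have been scaled separately, levels were also compared after rescaling the recovered reads of the genes listed in all 15 tables together with the TMM method. On this common scale Lgi2 was 488-fold higher in E-OEX LE than in wild-type LE and 1126-fold higher in U-OEx LE than in wild-type LE. Without wild-type LE replicate 2 these folds were 788 and 1817, and without wild-type LE replicate 3 they were 348 and 802. Its groups ran from wild-type LE through wild-type GE, E-OEX GE and E-OEX LE to U-OEx LE, and of the neighbours in this order only wild-type GE and E-OEX GE overlapped. E-OEX LE lay 54.1-fold above E-OEX GE, whereas wild-type GE lay 4.84-fold above wild-type LE. The latter fold was 7.81 without wild-type LE replicate 2 and 3.45 without wild-type LE replicate 3. E-OEX LE and U-OEx LE, 2.31-fold apart, were separated only narrowly, with 820 to 6090 against 6115 to 11628 on the common scale.

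Lgi3 ran from U-OEx LE and wild-type GE, which overlapped, through wild-type LE and E-OEX GE, which also overlapped, to E-OEX LE. E-OEX LE was 15.6-fold above wild-type LE, and E-OEX GE was 11.1-fold above wild-type GE. The luminal fold was 6.97 without E-OEX LE replicate 3 and 34.1 without wild-type LE replicate 1. Within a genotype the lumen was the higher in both, by 9.74-fold in the wild type (4.46-fold without LE replicate 1) and 13.7-fold in E-OEX (6.13-fold without LE replicate 3). U-OEx LE was at least 176-fold lower than E-OEX LE, at least 11.3-fold lower than wild-type LE and at least 12.8-fold lower than E-OEX GE. The first bound was 78.8 without E-OEX LE replicate 3, and the second was 5.18 without wild-type LE replicate 1. The mean of E-OEX GE was 1.14-fold that of wild-type LE, with overlapping libraries, and this too rested on wild-type LE replicate 1. Without it the fold was 2.48, and E-OEX GE (42.1 to 50.5 on the common scale) lay above the remaining wild-type LE libraries (15.5 and 22.1).

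Differences were then fitted with limma across all tested genes, on log2(value + 1) of the genes shared by the groups compared. In E-OEX LE against wild-type LE the log2 difference of Lgi2 was 8.57 ± 0.80 (SE), the highest of 2600 genes, and that of Lgi3 was 3.82 ± 0.95, 48th from the top. Both genes had all E-OEX LE libraries above all wild-type LE libraries, as did 15.1% of the genes tested. The size depended on single libraries. Without E-OEX LE replicate 3 the Lgi2 difference was 9.47 and the Lgi3 difference 3.05. Leaving out wild-type LE replicate 3 gave 7.88 for Lgi2, and Lgi3 measured 4.69 without wild-type LE replicate 1 and 4.46 without E-OEX LE replicate 2.

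In the glands the genes parted. Lgi3 differed by 3.82 ± 0.81 (log2, SE) between E-OEX GE and wild-type GE, 12th from the top of 2851 genes, and its libraries did not overlap, as in 18.6% of the genes with E-OEX GE the higher. The Lgi3 value was 2.72 without wild-type GE replicate 2, the library with 0 reads, and 4.54 without wild-type GE replicate 1. With a pseudocount of 0.1 it was 5.0. Lgi2 differed by 0.77 ± 0.47, and its libraries overlapped. The median over all genes was 0.05 on this scale and 0.50 on the deposited scale, on which 71.6% of the genes called in these glands were higher in E-OEX, against 41.3%.

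The genotype difference in GE minus that in LE was -7.49 ± 1.04 (log2, SE) for Lgi2, the lowest of 2933 genes. It was -8.25 without E-OEX LE replicate 3 and -6.79 without wild-type LE replicate 3. For Lgi3 it was 0.21 ± 1.38, and it changed sign in 6 of 18 alternative settings. Its genotype difference was thus about as large in the glandular libraries as in the luminal ones, with a wide error. The median over all genes was 0.33. Of the 2933 genes, 10.7% were called in this contrast.

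U-OEx LE against wild-type LE gave a log2 difference of 10.19 ± 0.60 (SE) for Lgi2, the 9th highest of 5949 genes, and 9.47 without wild-type LE replicate 3. All U-OEx LE libraries lay above all wild-type LE libraries for Lgi2, as in 32.7% of the genes, and below them for Lgi3, as in 31.2%. Against E-OEX LE the Lgi2 difference was 1.36 ± 0.60, and 0.61 without E-OEX LE replicate 3. Here U-OEx LE was the higher without overlap for 20.1% of 4275 genes and the lower for 18.1%. The E-OEX and U-OEx comparisons with wild-type LE share the wild-type libraries.

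Within the wild type, Lgi2 differed by 3.02 ± 0.71 (log2, GE minus LE, SE), and by 2.31 without wild-type LE replicate 3. Lgi3 differed by -2.55 ± 1.04, by -1.53 without wild-type GE replicate 2 and by -1.73 without wild-type LE replicate 1. In E-OEX the differences were -4.48 ± 0.67 for Lgi2 and -2.34 ± 0.76 for Lgi3, the latter -1.42 without E-OEX LE replicate 3 and -3.04 without replicate 2. Without E-OEX LE replicate 3 the Lgi2 value was -5.23. Rescaling with TMM gave -5.21 and -3.07 and moved the median of all genes in E-OEX from 1.75 to 1.07. Genes in these tables had been selected for a GE to LE ratio of about 2-fold or more, in either direction, so nearly all are called, 97% in the wild type and 91.6% in E-OEX. The GE minus LE sign of Lgi2 was positive in the wild type and negative in E-OEX, while that of Lgi3 was negative in both.

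Levels of the 2 genes were compared with each other per kilobase of exon. In wild-type LE Lgi3 was above Lgi2 in all 3 libraries, with 18.9, 3.68 and 2.87 scaled read counts per kb against 1.11, 1.41 and 0.171. In wild-type GE Lgi2 was the higher in all 3, with 5.37, 12.1 and 4.90 per kb against 2.0, 0 and 1.78. E-OEX GE held similar levels of both, 27.0, 10.7 and 14.6 per kb for Lgi2 against 15.9, 20.9 and 20.9 for Lgi3. The leading gene therefore changed between libraries of this group.

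E-OEX LE was split. Lgi2 measured 702, 540 and 127 scaled read counts per kb and Lgi3 71.6, 37.0 and 351, so that replicate 3 alone held more Lgi3 than Lgi2. In U-OEx LE Lgi2 stood at 1112, 1313 and 733 per kb, with Lgi3 at the floor. Over all 15 libraries the Pearson correlation of the 2 genes on the log2 common scale was -0.05. The libraries share groups, scaling and dissection, and the value is a description.

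**Figure D2:**
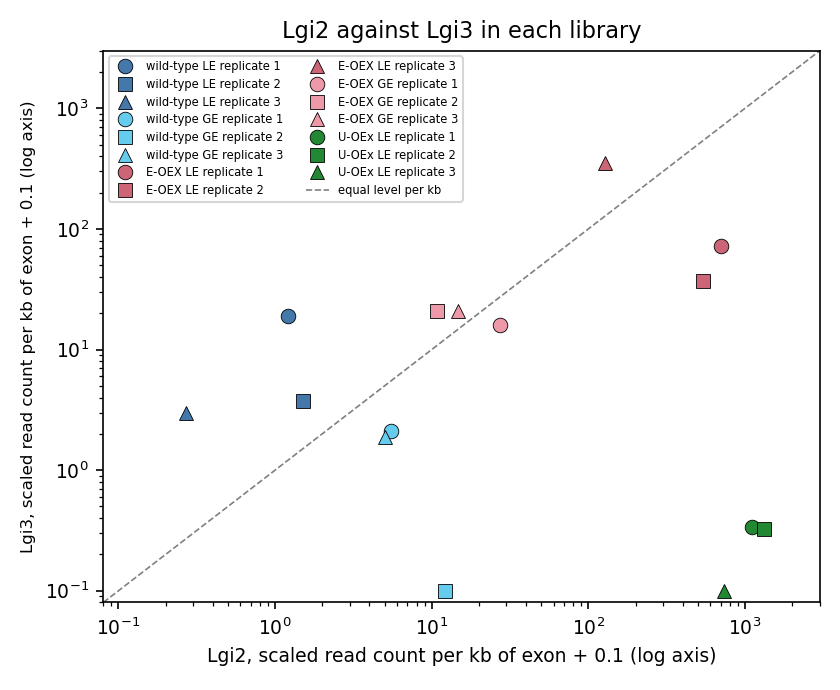
Lgi2 (horizontal) against Lgi3 (vertical) in each of the 15 libraries, as scaled read count per kb of exon + 0.1, both on log axes; the dashed line marks equal levels. The 3 U-OEx LE libraries lie at the lower right, with 733 to 1313 per kb of Lgi2 and Lgi3 at the floor, and E-OEX LE replicate 3 lies above the line, apart from the other E-OEX LE libraries.

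Other markers also moved among the E-OEX LE libraries. The summed scaled read count of 8 stromal markers was 2670, 1171 and 494 in replicates 1 to 3, that of the 6 listed of 8 glandular markers 1010, 200 and 111, and that of 4 mesothelial markers 801, 588 and 249. Each of these sums has the order of Lgi2 over the 3 libraries, and their part in its spread was not tested. The sums of the 5 luminal markers (18039, 17792 and 20765) and of the 2 listed of 5 epithelial markers (39821, 33458 and 51892) have the order of Lgi3. Their part in the spread of Lgi3 was not tested either. The stromal sum was far higher in wild-type GE (33937 to 99770, 7 of 8 listed) and E-OEX GE (78611 to 94024), where Lgi2 was between 32.0 and 176. In wild-type LE the stromal sums were 369, 7720 and 2461 and the mesothelial sums 110, 3274 and 1023 in replicates 1 to 3. Lgi2 measured 7.25, 9.22 and 1.12 there, so replicate 2 was the highest for all of them. The part of these sums in the Lgi2 levels was not tested. The 5 luminal markers summed to 17792 to 20765 in E-OEX LE, 11045 to 14450 in U-OEx LE and 34510 to 58799 in wild-type LE.

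The glandular libraries carried RNA of other tissues. Beside the stromal sums above, 5 smooth muscle markers summed to 13375 to 16301 in E-OEX GE and 15.1 to 66.6 in E-OEX LE. In wild-type GE the 4 listed of them summed to 2596 to 4669, a sum over fewer genes. Endothelial markers summed to 2296 to 6409 in E-OEX GE (4 of 5 listed) and 1940 to 3268 in wild-type GE (5 of 5 listed). The listed glandular markers summed to 4405 to 5969 in E-OEX GE (6 of 8 listed) against 30953 to 54467 in wild-type GE (8 of 8). The 5 luminal markers summed to 1164 to 2239 in E-OEX GE and 501 to 976 in wild-type GE, against 17792 to 20765 in E-OEX LE. The part of luminal RNA and of these other sums in the Lgi2 and Lgi3 levels of the glandular libraries was not tested. In these bulk libraries, fewer cells of a type and less RNA per cell cannot be told apart.

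Depth and labels bear on these values as follows. The wild-type and E-OEX libraries held 1980800 to 4797424 reads in their selected lists, and the U-OEx libraries, whose lists were not selected, held 13541644 to 14981505. Notch1 was listed in the U-OEx tables only, at 2913, 3524 and 2789 scaled read counts, so its level could not be set against the wild type.

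The unselected U-OEx list gives the place of the genes in a whole transcriptome. Of 27147 genes with an exon length, Lgi2 stood at rank 519 with a mean of 1053 scaled read counts per kb, above 98.1% of the genes. Lgi3 was above 6.34% of them, at 0.155 per kb. The level of Lgi2 in the U-OEx lumen was thus that of an abundant transcript, while the mRNAs of its relatives and known receptors were scarce there. Lgi1 stood at 0.161 per kb, Lgi4 at 0.827, Adam22 at 0.577 and Adam23 at 0.0859, and Adam11 was the highest of them at 12.3, above 46.8% of the genes.

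The other genes of the family were read from a list of proteins with EPTP repeats. Lgi1, mutated in human epilepsy with auditory features, was higher in the lumen of the wild type, with 77.7, 19.5 and 52.5 scaled read counts in LE and 10.7, 8.53 and 6.06 in GE. In E-OEX LE it held 16.4, 36.3 and 16.2, and in U-OEx LE 0, 3.55 and 1.92. Lgi1 fell by 4.25 ± 0.78 (log2, SE) in U-OEx LE against wild-type LE (limma, adjusted p = 0.00216). The differences of Lgi1 between E-OEX and the wild type, -1.15 in LE and -1.69 in GE, missed the threshold (limma, adjusted p = 0.364 and 0.144).

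Against E-OEX LE, Lgi1 fell by 3.39 ± 0.74 in U-OEx LE (limma, adjusted p = 0.0217), where 8.05% of all genes fell. That call was lost without U-OEx LE replicate 1 (0.0961), replicate 3 (0.0798) or E-OEX LE replicate 2 (0.0665), with a pseudocount of 0.1 (0.0604) and with no filter on low values (0.0557), all limma adjusted p-values. Lgi1 thus shared with Lgi3 its low level in U-OEx LE. It differed from Lgi3 in E-OEX LE, where its 3 values lay between 16.2 and 36.3. Its correlation over the 15 libraries was 0.45 with Lgi3 and -0.35 with Lgi2.

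Lgi4, the family member that Schwann cells use in myelination, was listed in the wild-type and U-OEx tables. It measured 1.04, 23.6 and 10.1 scaled read counts in wild-type LE, 35.0, 31.3 and 38.1 in wild-type GE and 1.84, 0.889 and 8.64 in U-OEx LE, which overlapped wild-type LE. Tspear, a secreted EPTP protein of tooth and hair development, rose in U-OEx LE against wild-type LE (limma, adjusted p = 0.000666), from 1.04, 1.02 and 0 to 18.4, 19.6 and 20.2, at least 5.99-fold. Adgrv1, the giant adhesion receptor of sensory hair cells, fell by 2.62 ± 0.64 (limma, adjusted p = 0.00851), from 31.1, 21.5 and 23.5 to 0.919, 4.44 and 6.72. Besides Lgi2 and Lgi3, 1 of 4 tested genes of this list rose and 2 fell in U-OEx LE against wild-type LE, with 29.1% and 27.8% of all genes called in these directions.

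Of the LGI receptors, Adam11 was listed in all tables. Its scaled read counts were 2.07, 3.07 and 5.59 for wild-type LE, 19.2, 25.4 and 6.48 for E-OEX LE and 39.5, 73.8 and 96.0 for U-OEx LE. These 3 groups do not overlap as deposited, but on the common scale E-OEX LE replicate 3 lies within the range of wild-type LE. Adam11 rose by 3.92 ± 0.54 in U-OEx LE against wild-type LE (limma, adjusted p = 0.000488), where 56.9% of all genes were called. Its differences of 1.72 in E-OEX LE against wild-type LE and of 1.95 in U-OEx LE against E-OEX LE missed the threshold (limma, adjusted p = 0.195 and 0.0669).

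Adam11 was higher in the glands, with 20.4, 40.8 and 26.0 scaled read counts in wild-type GE and 74.1, 90.8 and 109 in E-OEX GE. The rise of 1.20 ± 0.35 in E-OEX GE against wild-type GE (limma, adjusted p = 0.032) was lost without E-OEX GE replicate 2 (0.0841) or 3 (0.0885) and without wild-type GE replicate 1 (0.109) or 3 (0.0959), all limma adjusted p-values. This comparison called 23.5% of the genes, 9.72% higher and 13.8% lower.

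Adam22, the main receptor of LGI1 in the brain, was a gene of the glandular libraries. It measured 27.3, 34.1 and 31.1 scaled read counts in wild-type GE and 137, 64.4 and 101 in E-OEX GE, against 2.07 to 19.5 in the 9 luminal libraries. It rose by 1.16 ± 0.37 in E-OEX GE against wild-type GE (limma, adjusted p = 0.0486). With no filter on low values the limma adjusted p was 0.068, and without wild-type GE replicate 1, 2 or 3 it was 0.13, 0.0893 and 0.112. Without E-OEX GE replicate 1 or 3 it was 0.0973 and 0.0955. In the lumen the Adam22 differences from the wild type were -0.02 in E-OEX and 0.22 in U-OEx (limma, adjusted p = 0.99 and 0.809), and their signs changed between settings.

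Adam23 was listed at 5.84, 19.0 and 6.06 scaled read counts in wild-type GE and 13.0, 19.5 and 20.6 in E-OEX GE, a log2 difference of 0.47 (limma, adjusted p = 0.573). In the luminal libraries it was at or under the floor, with at most 1.92. Of these 3 receptors, Adam11 had the highest mean level per kb in E-OEX LE and U-OEx LE, where Lgi2 was highest. The same held in the glands, where Lgi2 was far lower. Mean scaled read counts per kb there were 5.12 for Adam11 and 2.15 for Adam22 in wild-type GE. In E-OEX GE they were 16.1 and 7.03. Within E-OEX, Adam11 was higher in GE than in LE, the reverse of Lgi2. The stromal and muscle sums given above were high in the same glandular libraries as Adam22 and Adam23, and their part in these levels was not tested. Nerve and Schwann cell markers summed to 46.1 to 132 in E-OEX GE (2 of 8 listed) and 753 to 892 in U-OEx LE (6 of 8 listed), sums over different genes.

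**Figure D3:**
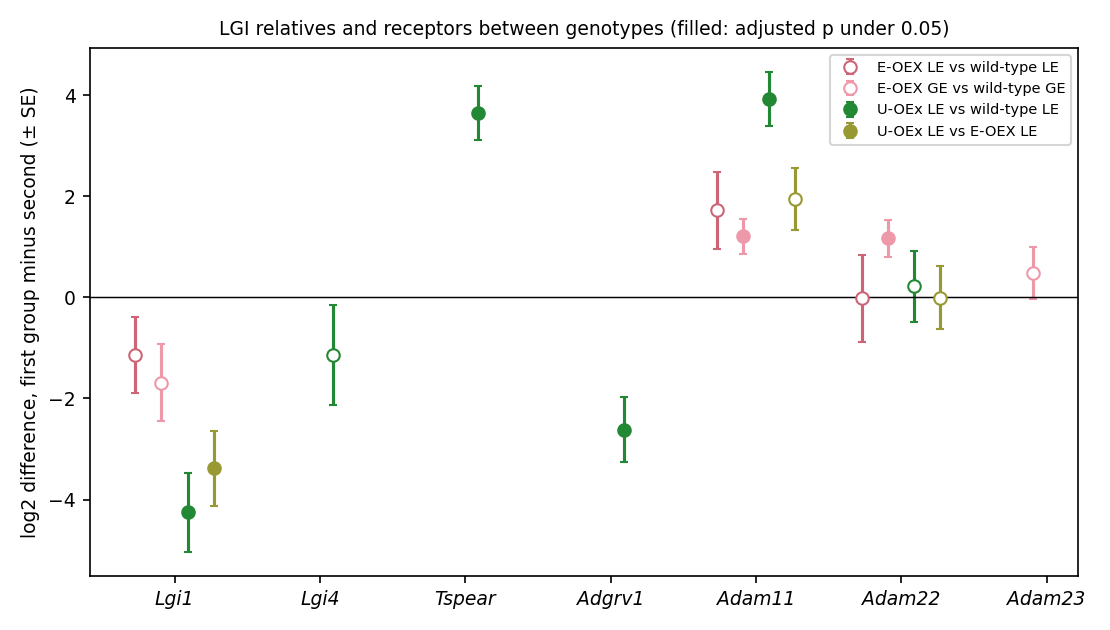
Log2 differences with SE between genotypes for the relatives of Lgi2 and Lgi3 and for the LGI receptors, on log2(TMM-rescaled reads + 1). Filled symbols have a limma adjusted p under 0.05. Lgi1 lies below 0 in both U-OEx LE comparisons (-4.25 and -3.39), and Adam11 is highest in U-OEx LE against wild-type LE (3.92).

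Genes that act beside LGI proteins at synapses and axons were read from a list of 15 scaffold, channel and vesicle genes. Of these, 6 were listed for the wild type, 4 for E-OEX and 14 for U-OEx. The wild-type and E-OEX lists were selected, so absence from them does not mean a low level. In U-OEx LE the levels were mixed, with means from 1403 scaled read counts for the scaffold gene Dlg1 to 0 for the channel gene Kcna4. In E-OEX LE against wild-type LE, 0 of 4 tested passed the threshold, where 10.7% of all genes did. The median of the 4 log2 differences was 0.54, beside -0.09 for all genes. In E-OEX GE against wild-type GE, 1 of 4 tested rose and 1 fell, beside 9.72% and 13.8% of all genes. Cntnap2, the cell adhesion partner of axonal potassium channels, rose from 1 read in each wild-type GE library to 20.03, 18.4 and 10.3 scaled read counts, at least 4.32-fold (limma, adjusted p = 0.00521). It was far higher in the lumen, at 226, 57.4 and 219 in wild-type LE and 421, 588 and 249 in E-OEX LE. The part of luminal RNA in its level in E-OEX GE was not tested. Gria1, an AMPA glutamate receptor subunit, fell by 2.14 ± 0.59 (limma, adjusted p = 0.0263), a call lost without filter (0.0512) and without any of 5 libraries, E-OEX GE replicate 2 or 3 or wild-type GE replicate 1, 2 or 3 (0.0501 to 0.135). In U-OEx LE against wild-type LE, Kcnab2, a potassium channel beta subunit, rose by 2.86 ± 0.58 (limma, adjusted p = 0.00348). The other 3 tested did not pass, where 56.9% of all genes were called and 29.1% rose. Against E-OEX LE, 0 of 3 passed, where 15% of all genes did.

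Among 9 other ADAM genes, which encode active proteases, 3 of 6 tested rose in U-OEx LE against wild-type LE, beside 29.1% of all genes. Adam19 went from 6.22, 2.05 and 4.47 to 203, 44.4 and 381 scaled read counts, a log2 difference of 4.93 ± 0.81 (limma, adjusted p = 0.00122). Adam28 rose by 1.46 ± 0.32 (limma, adjusted p = 0.005), and Adam15 by 0.92 (limma, adjusted p = 0.0248; 0.0503 without U-OEx LE replicate 2 and 0.0813 without wild-type LE replicate 3). In each E-OEX against wild-type comparison, 0 of 3 tested passed, beside 10.7% of all genes in LE and 23.5% in GE. Adam11 was therefore not the only ADAM gene that rose in U-OEx LE. Leukocyte markers summed to 3969, 1890 and 5076 in U-OEx LE (6 of 6 listed) and 579 to 1219 in wild-type LE (3 of 6 listed), sums over different genes. Adam19, Adam28 (1076, 748 and 1587) and Lrg1, given below, had the order of this sum over the U-OEx LE libraries. The part of leukocyte RNA in their levels was not tested.

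A further list held 24 other genes for secreted or membrane proteins with leucine-rich repeats, the repeat type at the start of LGI proteins. In E-OEX LE against wild-type LE 0 of 9 tested passed, where 10.7% of all genes did. Their median log2 difference was -0.73, beside -0.09 for all genes. In U-OEx LE against wild-type LE, 4 of 12 tested rose and 2 fell, beside 29.1% and 27.8% of all genes, so the share that rose was near that of all genes. The largest rise was that of Lrg1, a secreted glycoprotein, from 3.11, 22.5 and 12.3 to 3776, 906 and 4673 scaled read counts (log2 difference 7.85 ± 0.76; limma, adjusted p = 8.8e-05). Amigo2, an adhesion protein, fell by 3.70 ± 0.32 (limma, adjusted p = 5.3e-05). In E-OEX LE it measured 1157, 496 and 6953, with replicate 3 the highest as for Lgi3. Lrrn1, Flrt3 and Lrig3 rose by 5.42, 4.42 and 2.08, and Rxfp1, the relaxin receptor, fell at least 10.7-fold.

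In E-OEX GE against wild-type GE, Flrt3 rose by 1.90 and Lrrn1 fell by 1.33, 2 of 10 tested genes of the leucine-rich repeat list (limma, adjusted p = 0.00497 and 0.0116), a share that does not exceed the 23.5% of all genes called. The Lrrn1 call was lost on the deposited scale (limma, adjusted p = 0.0673) and without wild-type GE replicate 1 (0.103). In U-OEx LE against E-OEX LE, Adam19 rose by 3.53, Adam28 by 2.02 and Lrrn1 by 2.66, and Amigo2 fell by 3.26. Each of these calls (limma, adjusted p = 0.0249 to 0.0344) was lost without U-OEx LE replicate 1 (0.114 to 0.143) or replicate 3 (0.11 to 0.138), and with no filter on low values (0.0614 to 0.091). Adam19, Adam28 and Lrrn1 also lost theirs without E-OEX LE replicate 2 or 3 (limma, adjusted p = 0.0528 to 0.0928), and Lrrn1 and Amigo2 without U-OEx LE replicate 2 (0.0876 and 0.0825). With edgeR the adjusted p of Lrrn1 was 0.0752.

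The genes closest to each member in their pattern were found by Pearson's correlation on the log2 common scale over the 15 libraries, among 2669 genes with a symbol. For Lgi2 these were Shisa7 (0.986), Exoc3l4 (0.976), Lgals12 (0.975), Gm42047 (0.964) and Slc34a2 (0.964). Slc34a2, a sodium-dependent phosphate cotransporter, had group means of 4.86 and 44.5 in the wild-type lumen and glands, 1907 and 146 in those of E-OEX, and 11115 for U-OEx LE. The means of Lgals12, a galectin of fat cells, were 11.4, 22.3, 313, 54.1 and 1142 in the same order of groups. Both have the order of group means seen for Lgi2.

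For Lgi3 the likeness was weaker. The closest genes were Hey2 (0.835), Galm (0.812), Rbfox3 (0.796), Gm15082 (0.796) and Gm15906 (0.787). Hey2, a basic helix-loop-helix repressor and Notch target, had group means of 309, 60.1, 431, 658 and 23.0 on the common scale, in the order wild-type LE, wild-type GE, E-OEX LE, E-OEX GE and U-OEx LE. Like Lgi3 it was lowest in U-OEx LE, but its highest mean was in E-OEX GE. Galm, the mutarotase of galactose metabolism, had 6908, 586, 6365, 1077 and 272. Its mean in E-OEX LE was not above that in wild-type LE, unlike that of Lgi3.

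Of 8 Notch target genes, 2 of 4 tested rose in E-OEX LE against wild-type LE, Hey1 by 3.83 and Heyl by 4.37 (limma, adjusted p = 0.00646 for each), as did 5.12% of all genes. In E-OEX GE against wild-type GE 3 of 4 rose, beside 9.72% of all genes, Hey2 by 3.31, Hey1 by 2.59 and Heyl by 1.04 (limma, adjusted p = 0.000121, 0.000144 and 0.0379). The call of Heyl was lost in 7 of 12 alternatives, without E-OEX GE replicate 2 or 3 or wild-type GE replicate 1, 2 or 3 (limma, adjusted p = 0.0585 to 0.125), with no filter (0.0555) and with quantile normalization (0.0522).

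In U-OEx LE against wild-type LE 4 of 5 Notch targets rose, beside 29.1% of all genes, Heyl by 5.45, Hey1 by 3.65, Dtx1 by 3.20 and Notch3 by 2.25 (limma, adjusted p = 0.000506 to 0.000765), and Hey2 fell by 3.63 (limma, adjusted p = 0.000167). Against E-OEX LE, Hey2 fell by 4.21, Hes5 fell by 2.03 and Dtx1 rose by 2.36 (limma, adjusted p = 0.00592, 0.0296 and 0.0379), 3 of 6 tested beside 15% of all genes. The calls of Hes5 and Dtx1 were lost without U-OEx LE replicate 1, 2 or 3 or E-OEX LE replicate 2 (limma, adjusted p = 0.0607 to 0.147) and with no filter (0.0512 and 0.0851). Dtx1 also lost its call with a pseudocount of 0.1 (0.0506) and with edgeR (0.0591), and Hes5 with the replicate block (0.0544).

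Genes near the members were read in a window of 500 kb on either side, a window chosen after the values were seen, so these differences carry no test. Around Lgi2 lie 8 protein-coding genes, of which 4 are listed in the wild-type tables, 2 in the E-OEX tables and 8 in the U-OEx tables. Slc34a2, 472 kb away, measured 3382, 713 and 235 scaled read counts in E-OEX LE and 11493, 6039 and 7945 in U-OEx LE, against 3.11, 4.10 and 3.35 in wild-type LE. Its log2 differences from wild-type LE were 7.37 ± 0.85 in E-OEX LE and 10.82 ± 0.32 in U-OEx LE (SE), close in size to those of Lgi2. Genes nearer to Lgi2 differed less. Between U-OEx LE and wild-type LE, Ccdc149 differed by 0.40 ± 0.32, Sod3, an extracellular superoxide dismutase, by 0.49 ± 1.57, and Pi4k2b, a phosphatidylinositol kinase, by 2.53 ± 0.29.

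Around Lgi3 lie 24 protein-coding genes, of which 8 are listed in the wild-type tables, 6 in the E-OEX tables and 24 in the U-OEx tables. In E-OEX LE against wild-type LE the 3 with a fitted value all had negative differences, unlike Lgi3. Slc39a14, a zinc transporter 179 kb away, differed by -1.73, Piwil2, of the piRNA pathway, by -2.13 and Pdlim2 by -2.02. In the U-OEx LE comparison with wild-type LE the 3 differed by -4.01, -3.03 and -3.28. The other fitted neighbours differed by -2.64 (Ppp3cc), -0.74 (9930012K11Rik), -0.47 (Dok2) and 0.26 (Bmp1, 10.5 kb away). Within E-OEX LE, Slc39a14 measured 3118, 1883 and 5594 scaled read counts, Piwil2 73.0, 31.8 and 135, and Pdlim2 206, 80.8 and 1338. All 3 had the order of Lgi3 over these libraries, with replicate 3 the highest. The other neighbours listed for E-OEX did not. Sorbs3 measured 250, 310 and 454, Egr3 13.7, 0 and 11.9, and Gfra2 0, 0 and 2.16. The order of Lgi3 was not particular to its neighbours, since the epithelial and luminal marker sums and Amigo2, given above, had it too. The share of all genes with that order was not counted.

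**Figure D4:**
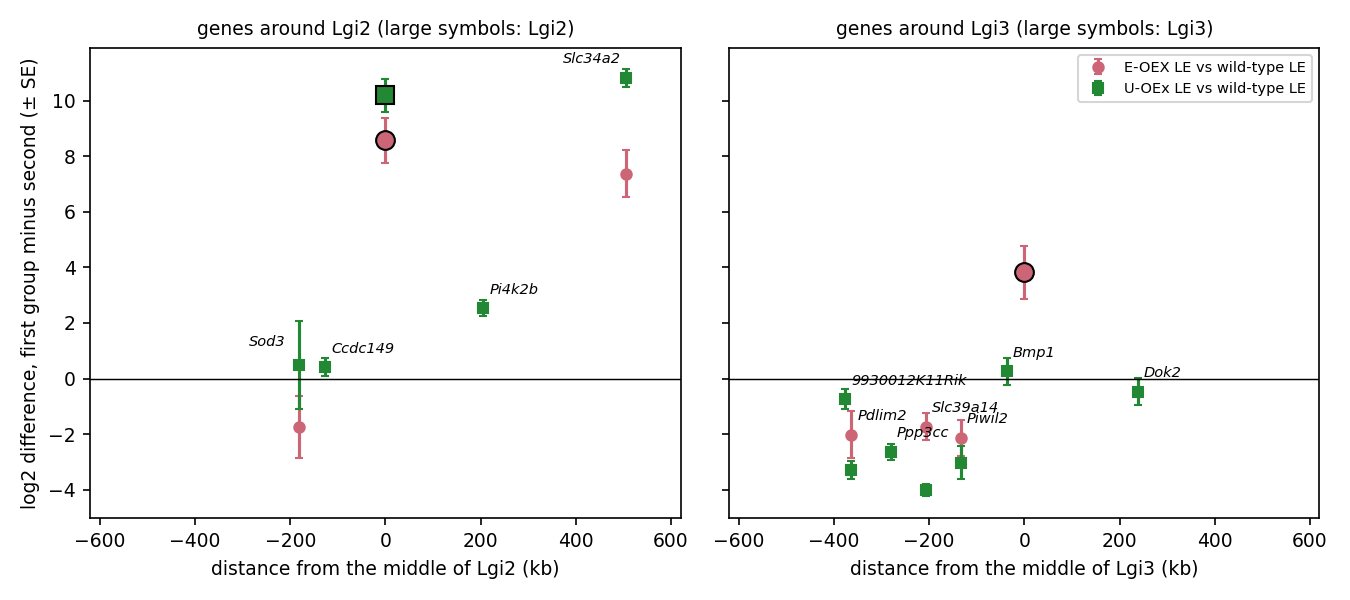
Log2 differences with SE from wild-type LE of protein-coding genes around Lgi2 (left) and Lgi3 (right), against the distance of their midpoints in kb; circles are E-OEX LE and squares U-OEx LE, and large symbols mark Lgi2 and Lgi3. Lgi3 in U-OEx LE is at the detection floor and is not plotted. Slc34a2 (7.37 and 10.82) is the only neighbour plotted that reaches the range of Lgi2.

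Within the Lgi2 gene body lie Gm43685, annotated on the opposite strand, and Gm43686, annotated on the same strand, and 0 of their exons overlap an exon of Lgi2. Gm43685 measured 29.2, 17.3 and 3.24 scaled read counts in E-OEX LE and 77.2, 89.8 and 77.8 in U-OEx LE. Gm43686 measured 52.9, 22.7 and 2.16 in E-OEX LE and 102, 108 and 143 in U-OEx LE. Both were highest where Lgi2 was, at a small share of its count. Whether the counting used strand is not given in the sources used here, so reads from Lgi2 introns and from these annotations cannot be told apart.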

How the data were processed

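Expression was measured by RNA sequencing in 15 libraries, 3 in each of 5 groups taken from the sample titles. The labels' protocols name a Qiagen RNeasy kit and the NEBNext Ultra RNA kit. The aligner, counter and scaling are not given in the sources used here. The submitters' processing notes name the builds GRCm38 and mm10. The authors' deposited values are handled as a signal, read counts divided by 1 factor per library: 100% of values were whole multiples of their library's step within 0.01, and reads were recovered from them. The wild-type and E-OEX tables list genes selected for their GE to LE ratio. Within-genotype and interaction fits used the deposited values. Comparisons between genotypes used recovered reads of shared genes, rescaled with TMM (edgeR 4.0.16), which takes most shared genes to be stable.

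The test was limma 3.58.1 (R 4.3.3) with a mean-variance trend, on log2(value + 1), keeping genes whose mean was at least 1, with Benjamini-Hochberg adjustment over all genes and a threshold of 0.05. Fold changes on that scale are understated for low genes. The code was tested on simulated data. Lgi2 and Lgi3, and the gene lists, were chosen with earlier results of these data known. Genes named are all listed EPTP and LGI receptor genes, up to 5 called genes of each other list and comparison, and the 5 genes most like each member. Chi-square per degree of freedom between replicates was 16.57 to 182.3, so no library repeated another. Alternatives were a pseudocount of 0.1, no filter, edgeR on recovered reads, other scalings, the replicate number as a block, and leaving out each library.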

Additional observations from a re-analysis of the deposited data

Results flagged for a closer look

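The interaction of epithelium and genotype sets the E-OEX minus wild-type difference in GE against that in LE, and it called 10.7% of 2933 genes. Of the lists, 1 of 10 tested leucine-rich repeat genes was called and 1 of 4 Notch targets in each direction. No tested gene of the other lists was called. The called genes are given here beside Lgi2, which is a description. For Lgi2 the difference in GE minus that in LE was -7.49 on the log2 scale, given without a p-value because the gene was known for this contrast. For Rxfp1, the relaxin receptor, it was 3.69 (limma, adjusted p = 0.0304), for the Notch target Hey2 3.30 (limma, adjusted p = 0.0148) and for Heyl -3.02 (limma, adjusted p = 0.021).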

How the results depend on the processing

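The differences of Lgi2 and Lgi3 kept their direction in 174 of 180 alternative values, and in 168 they also moved by less than 1 SD between replicates, a wide tolerance here. The interaction of Lgi3 changed sign with edgeR (-0.51), with TMM rescaling (-0.19) and without single libraries (-0.81 to 1.13, with -0.02 without E-OEX LE replicate 1, -0.49 without E-OEX LE replicate 2, -0.61 without wild-type LE replicate 1 and -0.81 without wild-type GE replicate 2). Lgi2 in wild-type GE against LE was 2.01 with quantile normalization, and Lgi3 in E-OEX GE against LE was -3.78 with edgeR. The fitted Lgi3 difference in U-OEx LE, where it is at the floor, depends on the added count and is no bound. It was -4.00 from wild-type LE (-5.65 with a pseudocount of 0.1, -5.59 with edgeR) and -8.09 from E-OEX LE (-9.80 with either). The cause of the other changes was not tested.

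With no filter on low values, 105 genes were called in E-OEX LE against wild-type LE (277 with it) and 286 in U-OEx LE against E-OEX LE (642 with it). Leaving out 1 library gave 56 to 322 and 60 to 904 in these comparisons, 362 to 728 in E-OEX GE against wild-type GE (670 with all libraries) and 179 to 449 in the interaction (315). The share of called genes higher in E-OEX LE than in wild-type LE was 58.6% on the deposited scale against 48%, and the share higher in E-OEX GE than in E-OEX LE was 56.8% with TMM and 46.2% with quantile normalization against 67.2%. In the interaction it was 43.9% with TMM and 42.9% with quantile normalization against 54.3%. Lgi3 in wild-type GE against LE was -3.69 with a pseudocount of 0.1 and -3.26 with quantile normalization, and Lgi2 and Lgi3 in E-OEX GE against LE were -5.28 and -3.29 with quantile normalization. Of 552 alternative values for the other named genes, 66 crossed the threshold and 12 changed sign, all of Adam22 in LE, where no call was made. Its difference between E-OEX and wild type was -0.02, and 0.013 with a pseudocount of 0.1, 0.12 on the deposited scale, 0.0022 with quantile normalization, and -0.67 to 0.61 without single libraries (positive without E-OEX LE replicate 1 or 2 or wild-type LE replicate 2). Between U-OEx and E-OEX it was -0.01, and 0.0087 with that pseudocount, 0.11 on the deposited scale, and -0.29 to 0.52 without single libraries (positive without U-OEx LE replicate 1 or E-OEX LE replicate 3). Between U-OEx and wild type it was 0.22, and -0.16 with edgeR and -0.41 (without wild-type LE replicate 1) to 0.88 without single libraries.

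Replicate numbers are shared across groups. Correlations between the deviations of same-numbered libraries were weak, from -0.284 to 0.188 over 6 comparisons. In each comparison 1 or 2 of the 3 libraries correlated best with their own number. These values do not decide whether same-numbered libraries were paired. With the replicate number as a block, 292, 718, 6187, 4374, 314, 3182 and 612 genes were called, in the order E-OEX LE and E-OEX GE against wild type, GE against LE in wild type and in E-OEX, the interaction, and U-OEx LE against wild-type LE and E-OEX LE. U-OEx depth is known, and wild-type and E-OEX depth is known only over selected genes. Folds between group means without single libraries were added after seeing the data.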
